A study of Rattus norvegicus with 9 samples.

Results

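The Slit and Robo genes are the secreted Slit ligands and the Roundabout (Robo) receptors that bind them. The 5 genes described here, Robo1, Robo2, Slit1, Slit2 and Slit3, were taken by gene name from the 20645 genes of an RNA-seq table of INS-1E cells, and they were chosen by their family and by their levels in the 3 groups, which were known when they were picked. Their values in those groups are therefore given as a description, with fitted differences and standard errors but without a test. INS-1E is a rat insulinoma line that secretes insulin. The cells had 24 h of fatty-acid-free BSA (the control group), palmitic acid (PA), or PA together with cyanidin-3-O-glucoside (C3G), with 3 replicate libraries of polyadenylated RNA in each group. The study's methods give 50 µM for C3G and, for its other assays, 0.5 mM for PA. PA was present in both treated groups and no group had C3G alone, so the PA + C3G group shows C3G on top of PA only. All libraries came from 1 cell line. The study's methods state biological replication for its experiments in general but do not describe how the RNA-seq replicates were separated, and errors and p-values measure the spread between these libraries.

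Slits are large secreted glycoproteins with leucine-rich repeats that bind the immunoglobulin domains of Robo receptors, with heparan sulfate taking part in the complex. They are best known for steering growing axons away from the midline of the nervous system. Inside the cell the Robo tail recruits srGAP proteins, which switch off Cdc42 and Rac1, and Abl kinase with Ena/VASP actin regulators, so that the signal reaches the cytoskeleton. In the pancreas, Robo receptors of beta cells are needed for the normal arrangement of endocrine cells in the mouse islet, and Slits made by islet cells have been linked to beta cell survival and insulin release.

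Robo1 was 2.92-fold higher with PA than with BSA, while Robo2, Slit1 and Slit2 were 1.52-fold to 1.74-fold lower. With C3G added, Robo1 stood at 0.481 of its PA level and Robo2 at 1.28 times its PA level, whereas Slit1 and Slit2 stayed near theirs. Slit3 was almost undetected in every group.

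The library totals lay between 45559993 and 66730721 estimated counts, and 12958 genes with a mean level of at least 1 FPKM (a fragment count divided by the length of the gene and by library size) were fitted together by edgeR. Among these were Robo1, Robo2, Slit1 and Slit2, but not Slit3. All 10 beta cell markers examined, from Ins1 to Ucn3, had a mean of at least 1 FPKM. Their summed level was 49010 to 49690 FPKM with BSA, 22224 to 22702 with PA and 46752 to 52249 with PA + C3G, so it moved with the treatments as well. Its part in the values below was not tested. Ins1 and Ins2 made up most of this sum, and single markers differed from it. Ins1 was at 24631 to 27703 FPKM with BSA, 12999 to 14342 with PA and 29172 to 36222 with PA + C3G. Ins2 was at 12847 to 15321, 1748 to 2100 and 6364 to 7700 FPKM in the same order. With PA + C3G, Ins1 thus stood above and Ins2 below every BSA library. Slc2a2, the glucose transporter gene, was at 490 to 527 FPKM with BSA, 99.99 to 107 with PA and 168 to 178 with PA + C3G. Ucn3 was at 33.6 to 69.5, 84.0 to 187 and 134 to 252 FPKM in the same order, and Nkx6-1 overlapped between BSA and PA. In bulk RNA, fewer cells of a type and less RNA per cell cannot be told apart. The leukocyte, endothelial and acinar markers with an entry were each under 1 FPKM on average, and glucagon (Gcg), of the alpha cell, was at 1.35 to 31.2 FPKM. Kdr was the only endothelial marker with an entry. Pecam1, Cdh5, Prss1, Sst, Ppy, Col1a2, Dcn and Cftr had none, so nothing is said of their levels. The fibroblast and duct lists each held 1 gene at 1 FPKM or more. Pdgfra was at 2.02 to 3.52 FPKM and Sox9 at 2.52 to 5.86 FPKM, both with their highest value in a PA library.

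The receptor genes lie next to each other. In the coordinates of the deposited table, whose genome build is not given in the sources used here, Robo1 (ENSRNOG00000029614) spans 501 kb of chromosome 11 on the plus strand, from 9642365 to 10143317. Robo2 (ENSRNOG00000029598) spans 522.6 kb on the minus strand, from 11062790 to 11585378. Each was the nearest tested protein-coding gene to the other on that side, at a distance of 919 kb, with their 3' ends facing each other. The ligand genes are on separate chromosomes, with Slit1 (ENSRNOG00000026065) on chromosome 1 from 260843483 to 260992366, Slit2 (ENSRNOG00000003840) on chromosome 14 from 66831848 to 67170361, and Slit3 (ENSRNOG00000007377) on chromosome 10 from 20320878 to 20518518. The values are per gene and do not separate exons, transcripts or start sites.

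Because Robo1 and Robo2 are neighbours that differed from BSA in opposite directions with PA, the 250 bases before their RefSeq start sites (rat build GRCr8) are shown, in lower case with matches to a CCAAT box (CCAAT) or a GC box (GGGCGG) on either strand in capitals. Robo1 has 2 listed starts, at chr11:24067706-24067955 (plus strand) and chr11:24714445-24714694 (plus strand), and Robo2 has 1, at chr11:26526413-26526662 (minus strand). The table also held Slit3, which is not shown. Slit1 and Slit2 were not matched.
Robo1, first start: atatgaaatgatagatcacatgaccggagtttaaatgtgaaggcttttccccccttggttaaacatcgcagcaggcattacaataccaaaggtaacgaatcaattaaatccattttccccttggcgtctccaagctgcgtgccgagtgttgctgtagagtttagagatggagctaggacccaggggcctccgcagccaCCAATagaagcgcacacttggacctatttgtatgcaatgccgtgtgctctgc
Robo1, second start: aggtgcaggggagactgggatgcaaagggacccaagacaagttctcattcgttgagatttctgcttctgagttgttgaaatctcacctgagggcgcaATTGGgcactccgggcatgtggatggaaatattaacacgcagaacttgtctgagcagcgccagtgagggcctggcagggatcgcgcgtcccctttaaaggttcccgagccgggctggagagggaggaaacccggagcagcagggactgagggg
Robo2: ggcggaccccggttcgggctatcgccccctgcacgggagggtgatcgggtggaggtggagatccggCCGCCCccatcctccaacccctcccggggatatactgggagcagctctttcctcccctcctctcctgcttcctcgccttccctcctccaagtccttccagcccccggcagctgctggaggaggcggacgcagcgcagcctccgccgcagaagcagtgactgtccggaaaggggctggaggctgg
The Robo1 windows had a GC content of 48.0% at the first start and 57.2% at the second, with 9 and 11 CpG dinucleotides. The Robo2 window was richer in both, with 69.2% GC and 17 CpG, against medians of 51.2% and 5 over 33469 rat promoter windows of the same length. Both Robo1 windows held 1 CCAAT box, a motif found in 34.0% of all windows, and Robo2 held 1 GC box, found in 30.5%. None of the 3 windows held the C/EBP-ATF composite motif TGATGNAA (3.40% of all windows), the cAMP response element TGACGTCA (1.59%) or its core TGACG, which overlaps it (18.2%). The letters CCACG of the ER stress element (27.2%) and the TATA box TATAAA (12.9%) were also not in them. All motifs were read on both strands, and the matches describe letters only.

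Robo1 encodes the receptor whose transcript was at its highest level with PA. Its level in the 3 BSA libraries was 10.04, 10.5 and 9.75 FPKM. With PA it was 27.0, 31.0 and 30.4 FPKM. With PA + C3G it was 13.1, 15.2 and 14.2 FPKM. The groups did not overlap, with BSA lowest, PA highest and PA + C3G between them but nearer to BSA. As mean ± SD of 3 libraries each, Robo1 had 10.1 ± 0.389 FPKM in BSA, 29.5 ± 2.19 in PA and 14.2 ± 1.03 in PA + C3G libraries. The fitted log2 fold change was 1.57 for PA versus BSA (standard error 0.07), −1.02 for PA + C3G versus PA (standard error 0.07) and 0.55 for PA + C3G versus BSA (standard error 0.07). The PA libraries enter both of the first comparisons. By log2 fold change Robo1 ranked 152 among the 6506 genes higher with PA than with BSA, and 87 among the 6499 lower with PA + C3G than with PA. Its rank by level among all tested genes was 7540 with BSA, 3138 with PA and 5899 with PA + C3G.

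Robo2, the other Slit receptor present, had the opposite pattern and a smaller range. It was at 28.6, 24.3 and 25.0 FPKM with BSA. It was at 18.4, 16.3 and 16.4 FPKM with PA and at 23.0, 20.6 and 21.8 FPKM with PA + C3G. Every PA library was below every library of the other groups, and every PA + C3G library was below every BSA library. In the same order, mean ± SD over 3 libraries came to 26.0 ± 2.29, 17.0 ± 1.18 and 21.8 ± 1.24 FPKM. The fitted log2 fold change was −0.58 for PA versus BSA (standard error 0.07), 0.39 for PA + C3G versus PA (standard error 0.07) and −0.19 for PA + C3G versus BSA (standard error 0.07). The gap between the PA + C3G and BSA groups was narrow, since the highest PA + C3G library (23.0 FPKM) lay just under the lowest BSA library (24.3 FPKM).

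**Figure D1:**
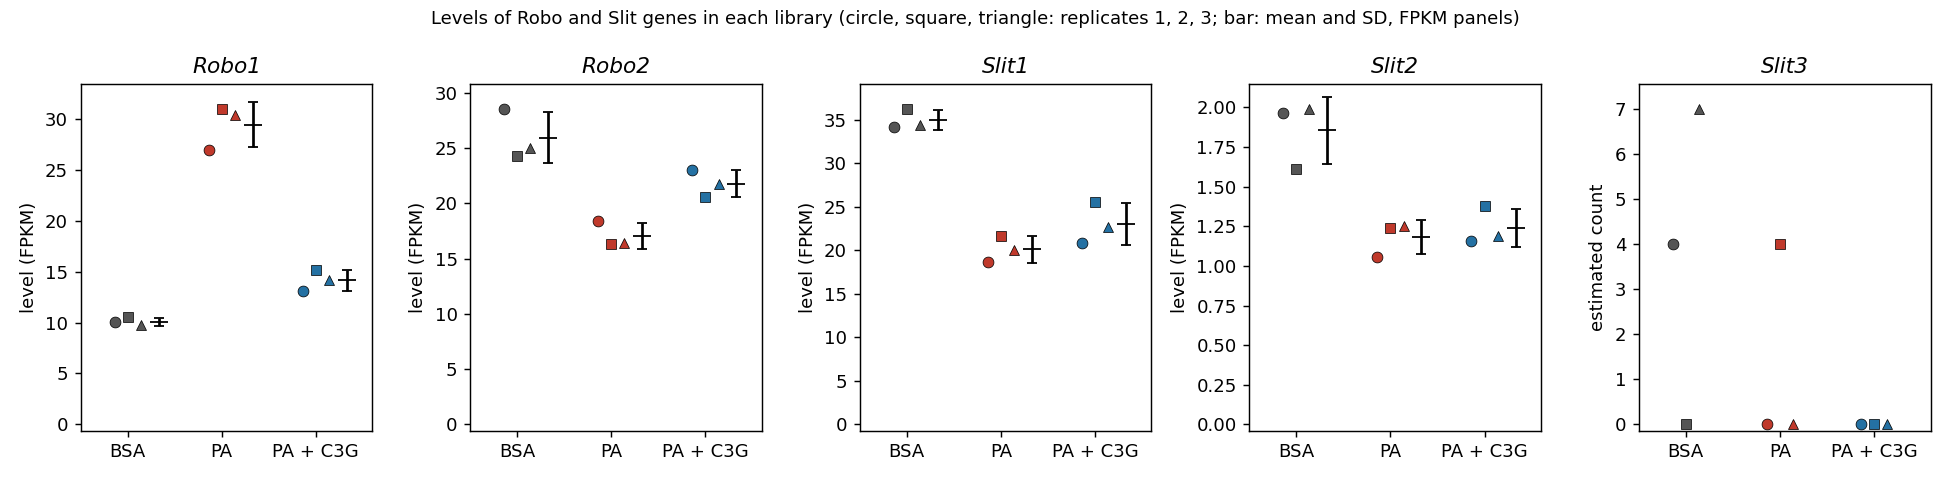
Level of each Robo and Slit gene in every library, in FPKM for 4 genes and in estimated counts for Slit3. Points are libraries, with circles, squares and triangles for replicates 1, 2 and 3, and bars give the mean and SD of 3 libraries. Robo1 is highest in the PA libraries (27.0 to 31.0 FPKM), whereas Robo2, Slit1 and Slit2 are highest in the BSA libraries.

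Slit1 encodes the ligand that made up most of the Slit transcripts. Its level was 34.2, 36.2 and 34.4 FPKM with BSA. With PA it was 18.6, 21.6 and 20.02 FPKM, and with PA + C3G it was 20.8, 25.6 and 22.6 FPKM. The BSA libraries stood above all others, and the PA and PA + C3G libraries overlapped. Slit1 thus averaged 34.9 ± 1.13 FPKM in BSA libraries (SD over 3 libraries), 20.1 ± 1.52 in PA libraries and 23.0 ± 2.42 in PA + C3G libraries. The fitted log2 fold change was −0.77 for PA versus BSA (standard error 0.08), 0.23 for PA + C3G versus PA (standard error 0.08) and −0.54 for PA + C3G versus BSA (standard error 0.08).

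Slit2, a second ligand of the same receptors, was much scarcer. It was at 1.96, 1.61 and 1.99 FPKM with BSA, at 1.06, 1.24 and 1.25 FPKM with PA, and at 1.16, 1.38 and 1.19 FPKM with PA + C3G. As for Slit1, the BSA libraries stood above all others while the treated groups overlapped. Averages were 1.86 ± 0.212, 1.18 ± 0.107 and 1.24 ± 0.121 FPKM (SD over 3 libraries each). The fitted log2 fold change was −0.62 for PA versus BSA (standard error 0.12), 0.11 for PA + C3G versus PA (standard error 0.12) and −0.52 for PA + C3G versus BSA (standard error 0.12). These values rest on 432 to 1033 estimated counts per library. Since about 4 of these counts stand for a sequenced fragment, counting alone gives a coefficient of variation of up to 9.62% in the shallowest library, close to the 9.05% to 11.4% seen between replicates.

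Slit3, the third ligand, had 4, 0 and 7 estimated counts in the BSA libraries, 0, 4 and 0 with PA and 0 in each PA + C3G library. About 4 counts stand for 1 fragment, so the listed values are 1 or 2 fragments. A 0 allows up to 3 fragments, or about 12 counts, in that library, and differences in Slit3 were not detectable at this depth. Robo3, a divergent receptor of the family, was listed at 0 in 8 libraries and at 4 counts in 1 PA library. Low listed values need not mean that a transcript is absent, because Rhoa, a GTPase gene that most cells use, was listed at a mean of only 0.0694 to 0.128 FPKM per group.

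**Figure D2:**
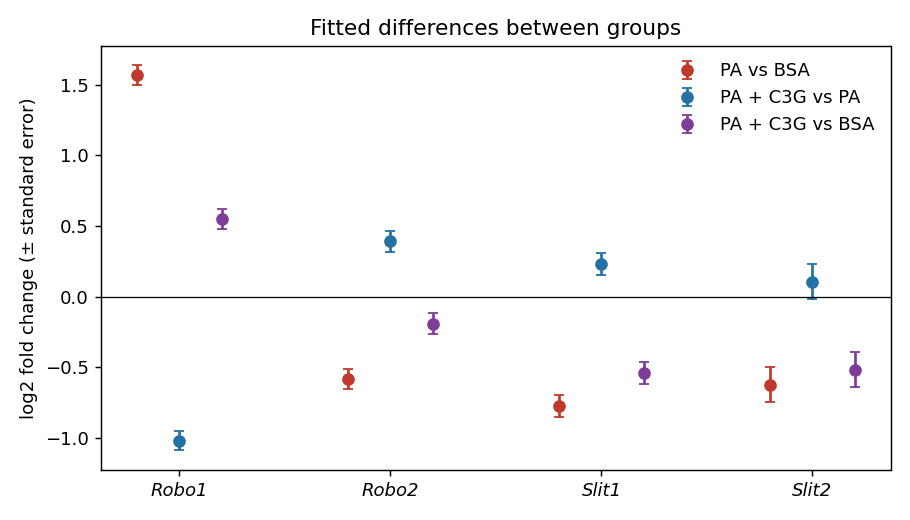
Fitted log2 fold change of the 4 measurable genes in each comparison, with its standard error (y axis). Robo1 is above 0 for PA versus BSA (1.57) and below 0 for PA + C3G versus PA (−1.02), while the other 3 genes are below and above 0 in these comparisons.

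The libraries of PA and BSA did not overlap for 4 of the 4 tested members, as for 59.9% of all tested genes (Robo1 higher, the rest lower, against 28.0% higher and 31.8% lower over all genes). For PA + C3G versus PA, 2 of 4 did not overlap (Robo1 lower, Robo2 higher), beside 39.5% of all genes (15.5% higher and 24.0% lower). Between PA + C3G and BSA, 4 of 4 did not overlap, beside 50.3% (Robo1 higher, the rest lower, against 19.2% higher and 31.1% lower over all genes). Since the members were picked with these values known, nothing is read from the counts. Distances of the treated means from the BSA mean were compared in FPKM, without logarithms. They were smaller with PA + C3G than with PA by 79.0% for Robo1, 53.2% for Robo2, 19.6% for Slit1 and 8.74% for Slit2. The Slit1 and Slit2 values come from groups that overlapped. These percentages depend on the scale. Fitted log2 fold changes relative to BSA were 1.57 (PA) and 0.55 (PA + C3G) for Robo1, against −0.58 and −0.19 for Robo2. On that scale the larger percentage of Robo1 than of Robo2 was not kept.

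The proportions of the receptors differed between the groups. Robo1 held 26.0%, 30.2% and 28.0% of the summed Robo1 and Robo2 FPKM in the BSA libraries. It held 59.4%, 65.5% and 65.0% with PA, and 36.3%, 42.5% and 39.5% with PA + C3G. Per length, Robo1 was thus the scarcer receptor transcript in every BSA and PA + C3G library and the more abundant in every PA library. On average the share came to 28.1% ± 2.11 in BSA, 63.3% ± 3.37 in PA and 39.4% ± 3.10 in PA + C3G libraries (SD over 3 libraries each). In each group the library numbered 1 had the lowest share and that numbered 2 the highest. Whether equal numbers mark a shared culture or day is not stated. From estimated counts, which are not scaled to length, the share was lower, at 15.7%, 45.3% and 23.7%, with the same order of groups. It was 41.2% to 47.6% in the PA libraries, so by counts Robo1 was the scarcer in every library.

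The summed receptor level was 34.8 to 38.6 FPKM with BSA and 35.7 to 36.2 FPKM with PA + C3G, ranges that overlapped, and 45.3 to 47.3 FPKM with PA. The summed Slit1 and Slit2 level was 36.2 to 37.8 FPKM with BSA, 19.7 to 22.9 with PA and 21.9 to 27.0 with PA + C3G, and Slit1 supplied 94.1% to 95.7% of it in every library. Ligand FPKM per receptor FPKM came to 1.02 ± 0.0780 in BSA, 0.457 ± 0.0249 in PA and 0.675 ± 0.0747 in PA + C3G libraries (SD over 3 libraries each), with no overlap between the groups. These are levels of RNA per length and say nothing of protein.

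**Figure D3:**
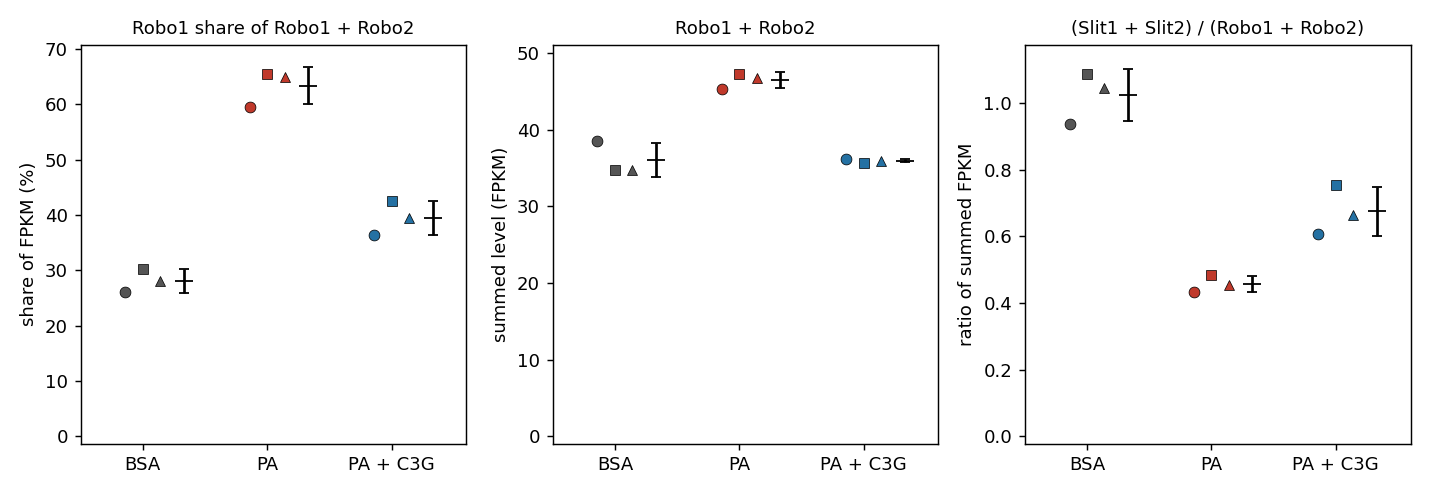
Robo1 share of the Robo1 and Robo2 FPKM (left, in percent), the sum of both (middle, in FPKM) and the ratio of summed Slit1 and Slit2 to summed Robo1 and Robo2 FPKM (right) in each library, with the mean and SD of 3 libraries. The share is 59.4% to 65.5% with PA and at most 42.5% in the other groups, and the ratio is lowest with PA.

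The order of levels per length differed between the groups. With BSA it was Slit1, Robo2, Robo1, Slit2, Slit3, and with PA it was Robo1, Slit1, Robo2, Slit2, Slit3, with no overlap between neighbours in either order. Slit1 and Robo2 nearly met in the PA group, where the lowest Slit1 library had 18.6 FPKM and the highest Robo2 library 18.4 FPKM. With PA + C3G, Slit1 and Robo2 overlapped at the top, followed by Robo1, Slit2 and Slit3 without overlap.

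The signalling partners were tested gene by gene. Their lists, too, were drawn up with earlier results of these data known, so the share of a list that was called is a description and no independent evidence. A list of 40 Slit-Robo pathway genes (co-receptors, processing enzymes, srGAPs and other GTPase regulators, Abl kinases, actin regulators and PAKs) had 38 genes in the table and 31 with enough expression for the test. With PA, 10 rose and 12 fell at an adjusted p-value under 0.05 in edgeR's quasi-likelihood test, and 9 did not pass. That is 71.0% of the list beside 51.0% of all tested genes, with a median log2 fold change of −0.09 beside 0.0030 over all genes. Over all genes, 25.8% rose and 25.2% fell.

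Srgap1 (ENSRNOG00000004603, chromosome 7, 63973279 to 64251110), an srGAP that binds the Robo tail and switches off Cdc42, rose most in the list. Its level was 1.37, 1.64 and 2.02 FPKM with BSA. With PA it was 3.89, 5.05 and 4.39 FPKM, and with PA + C3G it was 2.03, 2.35 and 1.88 FPKM. The PA libraries stood above all others, and the BSA and PA + C3G libraries overlapped. Srgap1 rose with PA relative to BSA (log2 fold change 1.43, standard error 0.17, adjusted p = 7.82e-05, edgeR) and fell when C3G was added to PA (log2 fold change −1.05, standard error 0.17, adjusted p = 0.00264, edgeR). Between PA + C3G and BSA the log2 fold change of Srgap1 was 0.38 (adjusted p = 0.106, edgeR). The family member Srgap2 did not pass in either of the first comparisons, with log2 fold changes of −0.09 and −0.26, and Srgap3 was under the expression filter.

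Among genes acting at the cell surface, Ext1, an enzyme that builds the heparan sulfate chains Slit binds, rose from 12.3 to 16.7 FPKM on average with PA (log2 fold change 0.46, adjusted p = 2.07e-05, edgeR). It was at 13.5 FPKM with PA + C3G, a fall of 0.27 on the log2 scale relative to PA (log2 fold change −0.27, adjusted p = 0.00339, edgeR). Plxna1, a plexin that can bind a Slit fragment, rose by 0.25 on the log2 scale with PA (adjusted p = 0.000575, edgeR). Dag1, which encodes the Slit-binding dystroglycan, fell by 0.21 with PA (log2 fold change −0.21, adjusted p = 0.00266, edgeR). The syndecan Sdc1 had a log2 fold change of −0.35 (adjusted p = 0.0900, edgeR). Dcc, a netrin receptor that Robo1 can bind, was under the filter, at a mean of 0.561 FPKM with BSA and 0.255 with PA.

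Cdc42, the GTPase that srGAPs act on, went from 105, 101 and 112 FPKM with BSA to 79.4, 78.8 and 77.7 with PA and 89.3, 83.2 and 85.0 in PA + C3G libraries. The log2 fold change was −0.41 for PA versus BSA (adjusted p = 6.89e-05, edgeR). Pak1, a kinase activated by Cdc42 and Rac1, was at 15.5, 15.0 and 15.2 FPKM with BSA, 9.10, 9.43 and 8.41 with PA and 10.7, 10.1 and 10.1 with PA + C3G, so the groups did not overlap. The log2 fold change was −0.74 for PA versus BSA (adjusted p = 4.10e-06, edgeR). Its relative Pak3 also fell (log2 fold change −1.76, standard error 0.32, adjusted p = 0.00138, edgeR). Abl1 was lower with PA (log2 fold change −0.58, adjusted p = 0.0455, edgeR), but its BSA libraries ranged from 16.1 to 31.6 FPKM, and without BSA replicate 3, the highest, the log2 fold change was −0.22. Its adjusted p was 0.0629 in DESeq2 and 0.0763, 0.0836 and 0.126 in edgeR without PA replicate 1, 2 or 3. Leaving out PA + C3G replicate 1, 2 or 3, which only share the estimate of the spread, gave 0.0570, 0.0558 and 0.0587. The related kinase gene Abl2 rose (log2 fold change 0.26, adjusted p = 0.0101, edgeR).

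**Figure D4:**
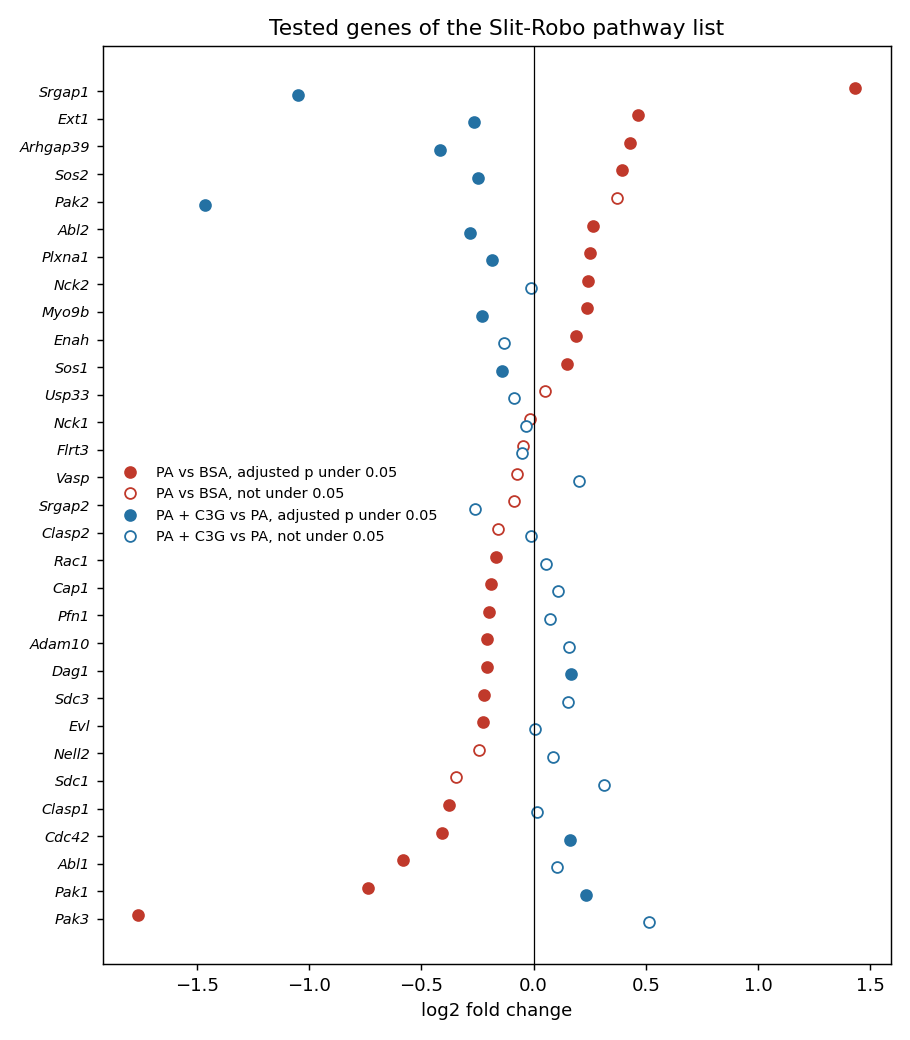
Log2 fold change (x axis) of the 31 tested genes of the Slit-Robo pathway list for PA versus BSA (red) and PA + C3G versus PA (blue), with filled points for an adjusted p-value under 0.05. Srgap1 has the highest value for PA versus BSA (1.43), and Pak2 the lowest for PA + C3G versus PA (−1.46). The PA libraries enter both comparisons.

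With C3G added to PA, 3 genes of the list rose and 9 fell, that is 38.7% beside 21.2% of all tested genes (11.1% higher and 10.2% lower). The median log2 fold change was −0.01, beside −7e-04 over all genes. Pak2 fell most. Its level was 17.3, 19.0 and 8.02 FPKM with BSA, 19.3, 17.3 and 19.7 with PA and 6.64, 7.22 and 6.03 with PA + C3G, so that the PA + C3G libraries stood below all others and 1 BSA library stood apart from the rest of its group. Its log2 fold change was −1.46 (standard error 0.26, adjusted p = 0.00453, edgeR). Srgap1, Ext1, Abl2, Arhgap39, Myo9b, Plxna1, Sos1 and Sos2 fell as well. Pak1, Dag1 and Cdc42 rose, with log2 fold changes of 0.23, 0.17 and 0.16. When libraries were set to equal FPKM totals (TPM scaling), 0 genes of the list rose and 11 fell, beside 775 and 2525 over all genes. The 3 genes that rose in the main fit then no longer passed. Without PA replicate 3 the list had 6 called genes, none of them a rise, beside 1718 over all genes (921 higher and 797 lower). Without PA + C3G replicate 1 it had 7, beside 2010 over all genes. The main fit called 2752 over all genes. Without PA + C3G replicate 1, Cdc42 had an adjusted p of 0.117 and Pak1 0.0582 (edgeR). Cdc42 had 0.0800 and 0.0801 without PA replicate 1 or 2. Dag1 had 0.0620 without PA replicate 1 and 0.0876 without PA + C3G replicate 3. When limma on log2(FPKM + 1) took the place of edgeR, Cdc42 had 0.0788 and Dag1 0.0663. Arhgap39 passed narrowly (log2 fold change −0.42, adjusted p = 0.0495, edgeR) and lost the call in 13 alternatives, with an adjusted p of 0.174 without PA replicate 3, 0.146 without PA + C3G replicate 1, 0.113 without PA replicate 1 and 0.0510 to 0.0762 in the others, which include leaving out any BSA library, PA + C3G replicate 2 or PA + C3G replicate 3. The adjusted p of Abl2 was 0.0639 without PA replicate 2 and 0.0593 without PA + C3G replicate 1.

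Relative to BSA, 2 genes of the list were higher with PA + C3G (Nck2 and Ext1) and 5 lower (Pak1, Pak2, Pak3, Cdc42 and Evl), 22.6% beside 36.9% of all tested genes (19.0% higher and 17.9% lower). Pak3 had the lowest log2 fold change of these, −1.24 (adjusted p = 0.0128, edgeR). TPM scaling gave 1 higher and 10 lower, beside 1891 and 3039 over all genes. Nck2 had an adjusted p of 0.0640 without BSA replicate 3, 0.0670 without PA + C3G replicate 1 and 0.0660 with TPM scaling (edgeR). With limma on log2(FPKM + 1), Nck2 had 0.0767 and Ext1 0.0667. That fit gave 0 genes of the list higher and 9 lower, beside 1850 and 3091 over all genes. In edgeR, Evl had 0.0624 without BSA replicate 2, 0.0654 without PA + C3G replicate 2 and 0.0668 without PA + C3G replicate 3.

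The other guidance families also had members that changed. Of 66 netrin, semaphorin, ephrin and related ligands and receptors, 38 were tested. With PA 14 rose and 10 fell, 63.2% beside the 51.0% of all genes, and the median log2 fold change was 0.18. The netrin receptor Unc5b rose most, from 8.92, 12.8 and 9.34 FPKM with BSA to 45.8, 46.2 and 48.5 with PA, and it was at 23.0, 32.4 and 27.3 FPKM with PA + C3G. The groups did not overlap. Its log2 fold change was 2.20 for PA versus BSA (adjusted p = 2.02e-06, edgeR) and −0.73 for PA + C3G versus PA (adjusted p = 0.00756, edgeR). The semaphorin Sema3g fell most with PA (log2 fold change −1.74, adjusted p = 7.33e-06, edgeR). The neuropilin receptors went opposite ways with PA, as Nrp2 rose (log2 fold change 1.27, adjusted p = 0.00668, edgeR) and Nrp1 fell (log2 fold change −0.93, adjusted p = 0.000107, edgeR). Ntn1, which encodes a netrin ligand, fell too (log2 fold change −0.65, adjusted p = 0.00627, edgeR). With a mean of at least 5 FPKM required, which left fewer genes to test, 13 of these genes were called, beside 5619 over all genes. When C3G was added to PA, 6 rose and 5 fell, 28.9% beside 21.2%. The count was 5 without PA replicate 3 (1718 over all genes) or without PA + C3G replicate 1 (2010). It was 7 without PA + C3G replicate 2 (2336). The main fit called 2752 over all genes. TPM scaling turned the split to 3 higher and 9 lower, beside 775 and 2525 over all genes. Relative to BSA, 11 were higher and 6 lower, 44.7% beside 36.9%. With TPM scaling these were 8 and 9, beside 1891 and 3039 over all genes. Without BSA replicate 1, 11 were called relative to BSA, beside 3955 over all genes. The main fit called 4783 over all genes.

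Genes near the members were compared by position. On the far side of Robo1, Gbe1, a glycogen branching enzyme 2157 kb away, had a log2 fold change of −0.40 for PA versus BSA (adjusted p = 0.0492, edgeR), against the 1.57 of Robo1. On the far side of Robo2, LOC680121 at 1914 kb had −0.21 (adjusted p = 0.724, edgeR). Beside Slit1, which differed by −0.77, Arhgap19 at 22.8 kb had −1.53 (adjusted p = 1.55e-06, edgeR) and Lcor at 12.6 kb had −0.15 (adjusted p = 0.0176, edgeR). Beside Slit2, Pacrgl at 60.1 kb had −0.20 (adjusted p = 0.189, edgeR) and Lcorl at 2630 kb had −0.18 (adjusted p = 0.287, edgeR). The nearest tested genes to Slit3 were Pank3 at 72.9 kb, with −0.03 (adjusted p = 0.364, edgeR), and Spdl1 at 668 kb, with −1.64 (adjusted p = 1.92e-06, edgeR).

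Over the 9 libraries, the genes with the profile most like that of Robo1 by Pearson's r of log2(FPKM + 1) were Nbr1 (r = 0.999), Slain2 (r = 0.998) and Eef2 (r = 0.996). They encode an autophagy receptor, a protein of growing microtubule ends and a translation elongation factor. Their ranges were narrower, with Nbr1 at 82.8 to 84.5 FPKM with BSA, 97.8 to 100.6 with PA and 87.4 to 89.6 with PA + C3G. For Robo2 they were C12H7orf61 (r = 0.995), Rnf6 (r = 0.993) and Tox3 (r = 0.990). For Slit1 they were Igfbp5, Prepl and Ca8 (r = 0.993 to 0.994), where Igfbp5, an IGF-binding protein, was at 22.4 to 29.3 FPKM with BSA, 4.93 to 7.85 with PA and 6.17 to 9.89 with PA + C3G. For Slit2 they were Stag1, Snw1 and Nr2c2 (r = 0.978 to 0.984). Between members, r was −0.961 for Robo1 with Robo2, −0.810 for Robo1 with Slit1 and 0.927 for Slit1 with Slit2. The libraries form 3 groups, and points of 1 group share their treatment, so these correlations are given as a description. Spearman's rho does not rank the genes further, since 11 genes tied at a rho of 1 with Robo1, 35 with Robo2 and 8 with Slit1, and 3 at 0.983 with Slit2. It was 0.967 to 0.983 for the genes named for Robo1 and for Robo2, 1 for each of those named for Slit1 and 0.933 to 0.967 for those named for Slit2.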

How the data were processed

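The 9 libraries were sequenced in paired-end mode from dUTP strand-marked, poly(A)-selected RNA. The submitters' processing notes name cutadapt 1.9, HISAT2 2.0.4 and StringTie 1.3.4d. The genome build and the strand setting of the counting are not given in the sources used here. The authors deposited estimated counts per gene without normalization, and FPKM, scaled by the authors to gene length and mapped fragments. Low counts pile up at 4, 8 and 12, with 2.44, 2.52 and 1.83 times as many values as the mean of the neighbouring counts. They do so again at 19 and 23 (1.81 and 1.61 times), but not clearly at 15 or 16 (1.09 and 1.15 times). The number of sequenced fragments was therefore taken as about a factor of 4 lower.

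Genes whose FPKM averaged 1 or more were fitted with edgeR 4.0.16 (R 4.3.3, TMM, quasi-likelihood test, all 9 libraries, Benjamini-Hochberg adjustment over 12958 genes). The procedure was first run on simulated data with far fewer changed genes than were called here. That run does not test its error rate on these data. Counting errors cover sampling of fragments only. The members and gene lists were chosen with earlier results of these data known. Named genes were the members, up to 5 rises and 5 falls per list and comparison among called genes without overlap between libraries, the nearest tested neighbours, the 3 genes most like each member, and Robo3 and Robo4 (Robo4 is not analysed here). Other genes of the lists (Sdc1, Dag1 with PA, Dcc, Rhoa, Srgap2) were named by their role, and Arhgap39, Myo9b, Sos1 and Sos2 to account for a count, with their values known. Alternatives were DESeq2 1.42.0, other size factors, equal FPKM totals (TPM scaling), other filters, only the compared groups, the replicate number as a block, limma 3.58.1 on log2(FPKM + 1) and log2(FPKM + 0.1), counts divided by 4, and leaving out each library. Promoter windows came from RefSeq (GRCr8).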

Additional observations from a re-analysis of the deposited data

How the results depend on the processing

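The fitted log2 fold changes of Robo1, Robo2, Slit1 and Slit2 kept their sign in every comparison under every alternative that gave a value. All alternatives reuse these libraries, so a kept sign is no independent evidence. For Slit2 in PA + C3G versus PA, the value (0.11) was smaller than its standard error (0.12). Slit2 had none at a mean FPKM of at least 5, and Slit3 was under the filter. The differences ranged from 1.45 to 1.62 for Robo1, −0.65 to −0.52 for Robo2, −0.83 to −0.72 for Slit1 and −0.73 to −0.39 for Slit2 in PA versus BSA. In PA + C3G versus PA they ranged from −1.11 to −0.97, 0.30 to 0.45, 0.14 to 0.30 and 0.02 to 0.15. Of 225 such values, 5 moved by more than the spread between replicates. On the log2(FPKM + 1) scale, which compresses low levels, limma gave 1.45 (Robo1) and −0.39 (Slit2) for PA versus BSA, and 0.45 (Robo1) and −0.35 (Slit2) for PA + C3G versus BSA. With TPM scaling Robo2 was at 0.30 for PA + C3G versus PA, where the median of all genes was −0.09. The Robo1 share from estimated counts was 15.7% (BSA), 45.3% (PA) and 23.7% (PA + C3G).

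Over all genes, 6614 were called for PA versus BSA, 2752 for PA + C3G versus PA and 4783 for PA + C3G versus BSA. Leaving out each library gave 1718 to 2838 genes for PA + C3G versus PA, lowest without PA replicate 3, and TPM scaling changed its split from 1436 higher and 1316 lower to 775 and 2525. For PA + C3G versus PA, the same leave-outs gave 6 to 11 Slit-Robo pathway genes and 5 to 13 other guidance genes. They also gave 19 to 30 KEGG axon guidance genes. For PA + C3G versus BSA they gave 11 to 17 other guidance genes, beside 3864 to 4684 over all genes. DESeq2 called 44 KEGG axon guidance genes for PA + C3G versus PA, beside 3330 over all genes. TPM scaling gave 11 Slit-Robo pathway genes for PA + C3G versus BSA, beside 4930 over all genes. A mean FPKM of at least 5 left 13 (PA versus BSA) and 9 (PA + C3G versus BSA) other guidance genes, since fewer were tested. Over all genes that filter left 5619 and 4169. Of 1225 values for named genes of the lists, 122 lost the call and none changed sign. The cause of these shifts was not tested.

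With the replicate number as a block, Robo1 was at 1.57 and −1.02 and the call counts over all genes were 6843, 3118 and 5058. For PA + C3G versus PA the block gave 16 Slit-Robo pathway genes (7 higher, 9 lower), 15 other guidance genes (7 and 8) and 38 KEGG axon guidance genes (19 and 19). For PA versus BSA, the standard error was 0.05 for Robo1, 0.03 for Robo2 and 0.04 for Slit1 with the block. It was 0.07, 0.07 and 0.08 without it. For Slit2 it was 0.13 with the block and 0.12 without. The Robo1 share and the Slit1 level were lowest in replicate 1 and highest in replicate 2 of every group. Deviations of same-numbered libraries from their group means correlated at −0.09 to 0.08 over 9 pairs. Libraries of unlike number correlated at −0.07 to 0.09. A library correlated best with its own number, among the 3 libraries of another group, in 9 of 18 cases. These were unevenly spread. Between PA and PA + C3G, same-numbered libraries had r of 0.08, 0.03 and 0.06, the highest for both libraries of each pair. Same-numbered pairs with a BSA library had r of −0.09 to 0.05. The main fit did not pair the numbers, and these values do not settle whether equal numbers are pairs. No result for a member changed sign under the block. Depth limits Slit3 and Slit2 most.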

Other observations

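The KEGG annotation of the deposited table places 170 genes besides the members in axon guidance, of which 122 were tested. Of the 170, 16 are also in the Slit-Robo pathway list and 58 in the list of other guidance genes, so these counts in part repeat those above. With PA 32 rose and 36 fell (55.7%, beside 51.0% of all tested genes), with a median log2 fold change of −0.03. Among those in neither of the lists above, Wnt5a, a Wnt ligand, rose from a mean of 1.69 FPKM to between 3.05 and 4.12 FPKM in the PA libraries (log2 fold change 1.16, adjusted p = 0.000317, edgeR). It fell with C3G added (log2 fold change −0.81, adjusted p = 0.00899, edgeR). Rras, a Ras-family GTPase, rose with PA (log2 fold change 1.12, adjusted p = 0.000682, edgeR). Lower with PA were Pak7, a kinase of the PAK family (log2 fold change −1.81, adjusted p = 0.00031, edgeR), Rgs3, a regulator of G-protein signalling (log2 fold change −1.21, adjusted p = 7.3e-07, edgeR), and the chemokine receptor Cxcr4 (log2 fold change −1.15, adjusted p = 0.000427, edgeR).

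When C3G was added, 15 of these genes rose and 14 fell (23.8%, beside 21.2%). With TPM scaling the split was 7 to 27, beside 775 to 2525 over all genes. The count was 19 without PA replicate 3 or without PA + C3G replicate 1, beside 1718 and 2010 over all genes. Relative to BSA, 21 were higher and 28 lower (40.2%, beside 36.9%). TPM scaling gave 14 and 40, beside 1891 and 3039 over all genes. Rgs3 stayed below BSA (log2 fold change −0.96, adjusted p = 6.37e-06, edgeR).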
